A study of Mus musculus with 6 samples.

Results

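The mouse transcripts of 3 RNA-seq libraries are described, labelled siAATF replicates 1, 2 and 3, out of 6 libraries in all. They were chosen by the library label, and no mouse gene was left out by a measured value. The mouse table holds 56884 genes, of which 26137 had at least 1 count in these libraries. Gene lists, rules and named genes were chosen with earlier results of these data known. The mice were male athymic BALB/c (nu/nu) animals, aged 6 weeks by the labels, that carried human hepatocellular carcinoma (HCC) cells of the QGY-7703 line in the left lateral lobe of the liver. An adeno-associated virus of serotype 8 (AAV8) carrying siRNA against mouse Aatf was given through the tail vein 1 week after implantation, and the animals were followed for another 3 weeks. All 3 libraries share strain, sex, tumor line and vector. The siRNA is driven by the TBG promoter, which is known to be active in hepatocytes, and knockdown in each cell type cannot be read from bulk RNA. Athymic mice lack a thymus and the T cells that mature in it. No contrast with the control virus was made, and nothing below is a measure of the effect of AATF silencing.

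The liver is built mostly of hepatocytes, which make most proteins of the blood plasma, detoxify drugs and steroids, turn ammonia into urea and oxidise fatty acids. Hepatocytes change their program in an acute-phase response: signals of inflammation such as interleukin-6, acting through STAT3 and C/EBP factors, raise serum amyloid A, haptoglobin, hemopexin and orosomucoids, which bind hemoglobin, heme, lipids or bacterial products. In male mice, pulsed growth hormone acting through STAT5B keeps up the major urinary proteins (MUPs, carriers of pheromones) and a set of steroid-metabolising enzymes.

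The libraries held 42563694, 11835898 and 34966245 mouse counts in replicates 1, 2 and 3. Reads counted on human genes were 0.972% (95% Wilson interval 0.969 to 0.975), 2.14% (2.13 to 2.15) and 1.16% (1.16 to 1.17) of all counts. The libraries were amplified and hold no molecular identifiers, so these intervals and the floors given later measure counting error alone. Levels are given as TPM, the count divided by the length of the gene and scaled to a sum of 1000000 over all mouse genes of a library. A second scale, mRNA TPM, sums to 1000000 over the 21620 nuclear protein-coding genes only, and it was added after the mitochondrial share was seen to differ between libraries. A gene was called set apart where its mean was at least 10 and 1 library lay at least 4-fold above, or at least 4-fold below, each of the other 2. Such a call puts 1 library on a side, so it has no replicate and no p-value. Replicate numbers only name the libraries, and 8689 genes, 7988 of them protein-coding, reached a TPM of at least 1 in all 3.

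Aatf (ENSMUSG00000018697, GRCm39 chromosome 11, 84313681 to 84404348, minus strand), the target of the siRNA and a nucleolar factor that inhibits apoptosis, had 384, 109 and 340 counts in replicates 1, 2 and 3. On the TPM scale its level was 7.71, 7.33 and 7.84, a mean of 7.63 ± 0.264 (SD, n = 3). In mRNA TPM the level was 12.5, 29.4 and 10.8. With the library size factors of edgeR (TMM) it was 5.91, 8.81 and 8.10, and with those of DESeq2 it was 5.67, 9.14 and 7.99. The 3 libraries were close to each other in TPM, whereas replicate 2 was the highest on the other 3 scales, and the order of replicates 1 and 3 turned between mRNA TPM and those size factors.

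The labelled tissue was checked against hepatocyte markers. Alb, the albumin gene, stood at 22062, 3734 and 12255 TPM. Apoa1, the main protein of high-density lipoprotein, stood at 19245, 6613 and 22653 TPM, and Cps1, the entry enzyme of the urea cycle, at 290.1, 69.3 and 106.8 TPM. Each of the 8 hepatocyte markers, among them Ttr, Asgr1, Tat and Hnf4a, reached a TPM of at least 1 in all 3 libraries. Replicate 2 was the lowest of the 3 for Alb, Apoa1 and Cps1 on the TPM scale. On the mRNA TPM scale Apoa1 was 31088, 26532 and 31052, and the lowest Cps1 level was then in replicate 3 (468.6, 278.2 and 146.4).

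The mitochondrial genome gave a large and uneven part of each library. Its 37 genes held 33.5% of TPM in replicate 1, 66.1% in replicate 2 and 25.0% in replicate 3 (41.5% ± 21.7, SD, n = 3). The 13 mitochondrial mRNAs held 25.5%, 43.7% and 19.3%, and the 2 mitochondrial rRNAs held 6.33%, 19.5% and 4.93%. Nuclear rRNA genes showed the same order, with 2.71%, 6.73% and 1.02% of TPM, nearly all of it in Rn18s-rs5 (27034, 67219 and 10154 TPM). Nuclear protein-coding genes were left with 61.9%, 24.9% and 73.0%. Replicate 2, which also has the smallest total count, was therefore the library richest in mitochondrial RNA and rRNA and poorest in nuclear mRNA. Its human share, 2.14%, was the largest of the 3 as well, and the part of depth or human reads in this order was not tested.

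**Figure D1:**
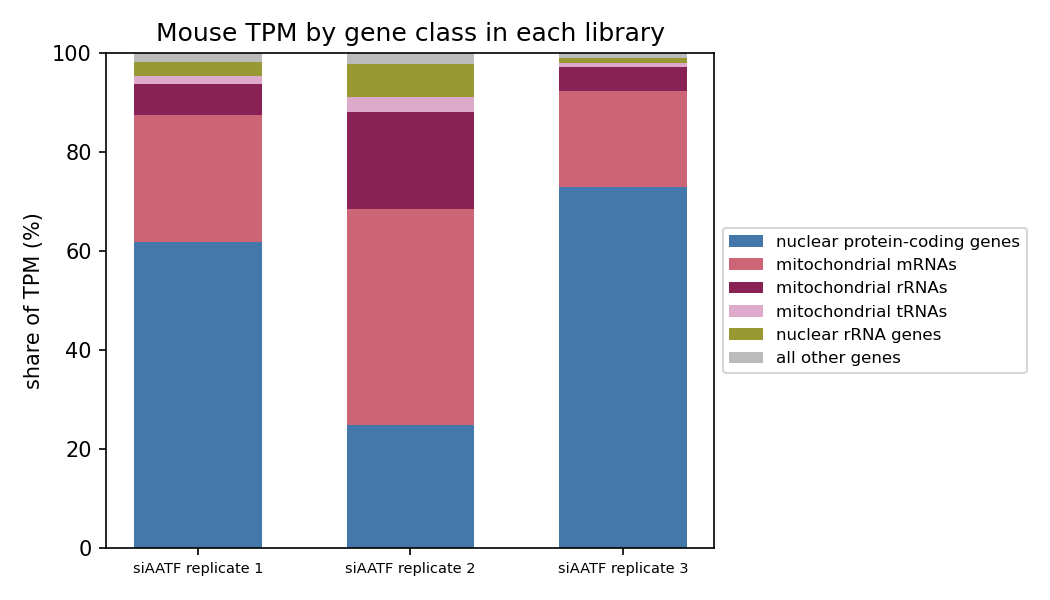
Share of mouse TPM (vertical axis, percent, linear from 0) in 6 gene classes, 1 stacked bar per library. The blue part, nuclear protein-coding genes, is 61.9% in replicate 1, 24.9% in replicate 2 and 73.0% in replicate 3.

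The single gene of largest mean TPM was mt-Co1, a subunit of cytochrome c oxidase, with 82322, 134281 and 59409 TPM. It was followed by mt-Rnr2, the large mitochondrial rRNA (42152, 150162 and 32154 TPM), by mt-Cytb of complex III (46966, 79631 and 41529 TPM) and by mt-Nd1 of complex I (48778, 82582 and 30840 TPM). Among the 10 genes of largest mean TPM, 7 lay in the mitochondrial genome. Of the other mitochondrial genes among the 30 leading, mt-Nd2 had 32346, 55786 and 22456 TPM, mt-Nd4 had 17772, 28544 and 11743, mt-Nd5 had 10155, 21106 and 12006, and mt-Nd6 had 15665, 33133 and 14577, all of them of complex I. The small mitochondrial rRNA, mt-Rnr1, had 21110, 44799 and 17108 TPM. Replicate 2 was the highest for each of these 5 genes. The short gene mt-Tp, of 67 bases, had 15231, 26253 and 4784 TPM, and its value is uncertain at that length. Together the 10 leading genes held 34.6%, 66.3% and 31.8% of TPM, and the 100 leading genes held 65.2%, 84.3% and 74.2%.

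Within the mitochondrial genome, 6 of the 13 mRNAs were far below the other 7. mt-Co2, mt-Atp8, mt-Atp6, mt-Co3, mt-Nd3 and mt-Nd4l stayed at or under 529.1 TPM in each library, whereas the lowest level of the other 7 in any library was 10160 TPM. The mRNAs of mt-Co1 and mt-Co2 encode subunits of 1 enzyme, yet mt-Co2 had 5646, 1776 and 2159 counts against 3475620, 1692308 and 2183990 for mt-Co1. A nuclear copy of this stretch of the mitochondrial genome lies on GRCm39 chr1:24650616-24655278 (4663 bases, annotated as 7 unprocessed pseudogenes on the minus strand). Of the 100-base windows of mt-Co2, mt-Atp8, mt-Atp6, mt-Co3 and mt-Nd4l, 100% occur letter for letter in that block, and 98.8% of those of mt-Nd3 do. The share was 26.3% for mt-Co1, 60.8% for mt-Nd4 and 0 for the other 5 mitochondrial mRNAs. Reads that map to several places were discarded before counting, and the part of this step in the low counts of the 6 genes was not tested, since no alignments were read. Their nuclear copies had counts of the same order: Gm28661, the copy of mt-Co2, had 5306, 1778 and 2119, and Atp6-ps had 8786, 3200 and 3750 beside 7366, 2939 and 3314 for mt-Atp6. The levels of the 6 genes are given as counted and are uncertain.

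On the mRNA TPM scale the leading nuclear genes were those of a secretory liver. Apoa2, which encodes an apolipoprotein of high-density lipoprotein, had the largest mean, with 48449, 55966 and 23262 mRNA TPM. Apoa1 and Apoe were the steadiest of the leading genes, at 29557 ± 2620 and 20882 ± 2326 mRNA TPM (SD, n = 3). Alb stood at 35640 in replicate 1 and at 14981 and 16798 in replicates 2 and 3. Apoc1, Apoc3, Trf (transferrin), Fabp1 (a carrier of fatty acids), Ttr (transthyretin) and the protease inhibitors Serpina1b, Serpina1c and Serpina3k were further leading genes, none of them set apart on this scale. The widest ranges among the leading genes were those of Saa2, Orm2, Saa1 and Car3, and 3 of these 4 belong to the acute-phase list. Saa2 ranked 2324th, 15th and 1st among nuclear protein-coding genes in replicates 1, 2 and 3, and Saa1 ranked 478th, 19th and 2nd.

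**Figure D2:**
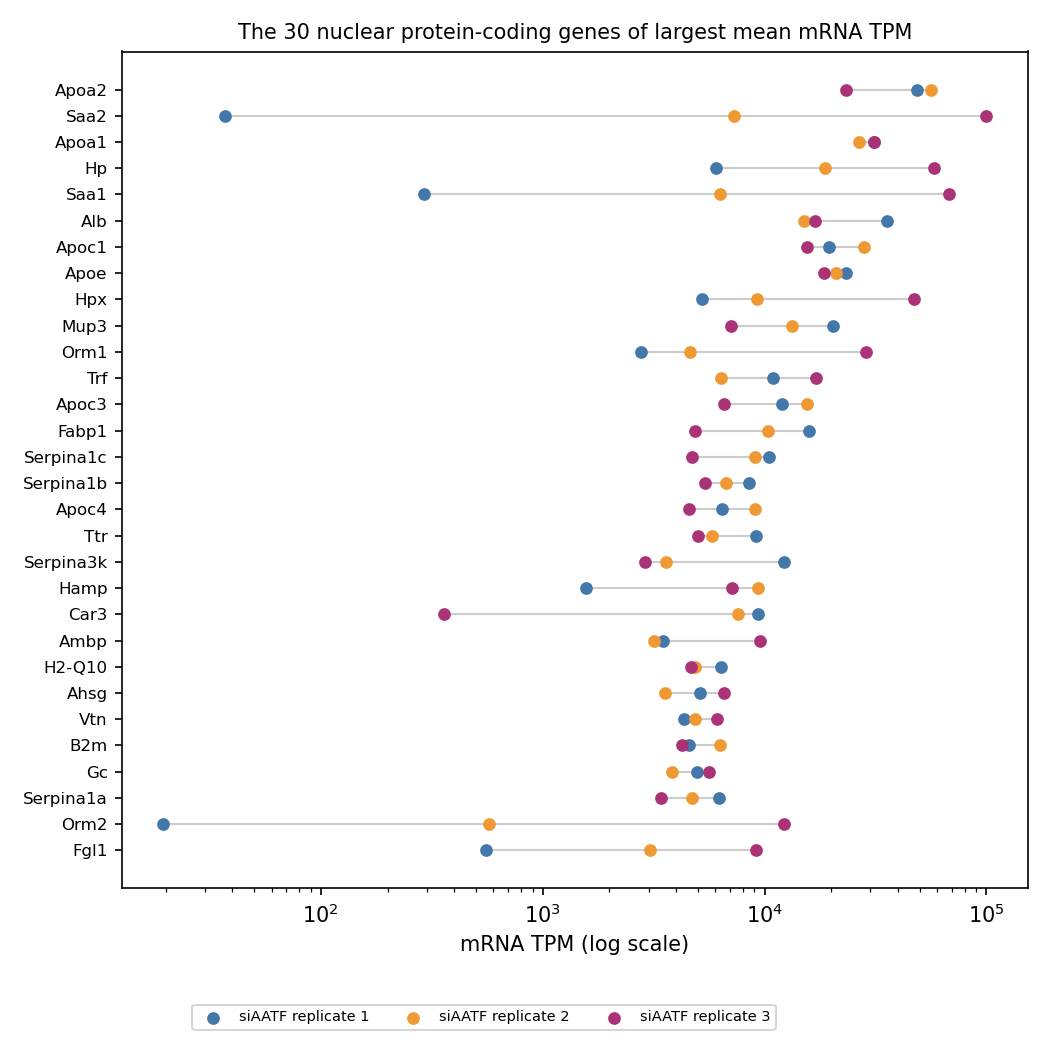
mRNA TPM (horizontal log axis) of the 30 nuclear protein-coding genes with the largest mean, ordered from the top, 1 point per library and a gray line from the lowest to the highest. Apoa1 and Apoe show nearly overlapping points, whereas Saa2, Saa1, Orm2 and Car3 span the widest ranges.

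The acute-phase list had the largest absolute difference of summed mRNA TPM between libraries of the 50 gene lists. Its 25 genes summed to 16458, 17330 and 262657 TPM, or 1.65%, 1.73% and 26.3% of the library. In mRNA TPM the sums were 26586, 69531 and 360042, a ratio of 13.5 between replicates 3 and 1. Of the 24 members with a mean TPM of at least 10, 14 were set apart high in replicate 3 against 1.2% of the 3682 genes of that level, and 5 were set apart low in replicate 1 against 0.435%. On the mRNA TPM scale, 8 of 24 were set apart high in replicate 3 against 0.356% of 5330 genes, and 6 were set apart low in replicate 1 against 0.375%. The median member had a log2 ratio of replicate 3 to replicate 1 of 2.19, beside -0.56 for all 10578 nuclear protein-coding genes with a mean mRNA TPM of at least 1.

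Among the serum amyloid A genes, Saa2 (chromosome 7, 46401214 to 46403737), whose product replaces other proteins on high-density lipoprotein during inflammation, had 22.8, 1820 and 72869 TPM. Saa1 (chromosome 7, 46389921 to 46392404) had 180.9, 1564 and 49381 TPM. The 3 libraries were spaced apart for both genes, with replicate 1 the lowest, replicate 2 between and replicate 3 the highest. Saa3, made by macrophages as well as hepatocytes, had 4.09, 3.90 and 63.9 TPM. Saa1 and Saa2 are close relatives, so reads shared between them were dropped and the split of counts between the pair is uncertain.

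Carriers of hemoglobin, heme and small molecules came next. Hp, Hpx and Orm1 had similar TPM in replicates 1 and 2 and stood out in replicate 3, whereas Orm2 and Lcn2 had 3 levels far from each other. Hp, haptoglobin, stood at 3727, 4645 and 42211 TPM. Hpx, hemopexin, stood at 3236, 2309 and 34542 TPM. Orm1, an orosomucoid, stood at 1711, 1147 and 20807 TPM, and Orm2 at 12.1, 142.2 and 8952 TPM. Ambp, the precursor of the heme-binding alpha-1-microglobulin, stood at 2162, 790 and 6960 TPM. Lcn2, which binds the iron carriers of bacteria, had 14.2, 225.8 and 5427 TPM. Apcs, serum amyloid P, had 564, 331 and 4404 TPM. In mRNA TPM, Hp was 6021, 18637 and 57861 and did not meet the 4-fold rule, while Hpx, Orm1, Orm2, Lcn2 and Apcs met it.

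Fgb, a chain of fibrinogen, stood at 1136, 555 and 5308 TPM, while Fga and Fgg were the highest in replicate 3 without being set apart. Hamp, hepcidin, the hormone that limits the uptake of iron, stood at 970.5, 2321 and 5206 TPM, and was set apart low in replicate 1 on the mRNA TPM scale only. Crp, a minor acute-phase protein in mice, was the highest in replicate 1 (245.1, 70.5 and 128.7 TPM). Socs3, a feedback inhibitor of STAT3 signaling, had 195, 93 and 1919 counts, or 2.80, 4.47 and 31.6 TPM. The metallothioneins, which bind zinc and copper, had the same order of libraries as Saa2: Mt1 stood at 49.0, 510 and 5741 TPM and Mt2 at 2.30, 18.97 and 279 TPM. The other members of the metallothionein and NRF2 list that were measured at a mean TPM of at least 10 were not set apart in any library.

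The sequence just before the annotated start was read for genes of this group, since they were high together in 1 library. Windows of 250 bases upstream of the start of the main GENCODE transcript (release 39) were read for 9 genes. They are shown for 4 genes high in replicate 3 on the TPM scale and for Apoa1, Hsd3b5 and Mup20 as genes that were steady in mRNA TPM or not the highest there. None of these overlaps an annotated exon, whereas the windows of Alb and Car3 do and are not shown. Capitals mark letters TTGCNNAA, on either strand, which C/EBP factors bind in many genes, and letters TATAAA on the strand of the gene. The windows lie on chr7:46400964-46401213 (Saa2, plus strand), chr7:46392548-46392797 (Saa1, minus), chr4:63280436-63280685 (Orm2, plus), chr8:110305805-110306054 (Hp, minus), chr9:46139628-46139877 (Apoa1, plus), chr3:98537569-98537818 (Hsd3b5, minus) and chr4:61972396-61972645 (Mup20, minus) of GRCm39, each read 5′ to 3′ on the strand of its gene.
Saa2: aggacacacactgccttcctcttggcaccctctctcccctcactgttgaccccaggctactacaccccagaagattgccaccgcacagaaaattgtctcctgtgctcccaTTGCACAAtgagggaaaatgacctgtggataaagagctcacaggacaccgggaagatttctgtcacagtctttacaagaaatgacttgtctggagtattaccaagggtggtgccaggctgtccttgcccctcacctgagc
Saa1: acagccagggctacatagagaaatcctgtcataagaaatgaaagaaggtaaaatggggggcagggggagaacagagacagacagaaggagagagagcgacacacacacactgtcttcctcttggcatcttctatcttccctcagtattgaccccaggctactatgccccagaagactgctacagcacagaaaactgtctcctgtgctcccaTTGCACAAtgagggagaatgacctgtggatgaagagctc
Orm2: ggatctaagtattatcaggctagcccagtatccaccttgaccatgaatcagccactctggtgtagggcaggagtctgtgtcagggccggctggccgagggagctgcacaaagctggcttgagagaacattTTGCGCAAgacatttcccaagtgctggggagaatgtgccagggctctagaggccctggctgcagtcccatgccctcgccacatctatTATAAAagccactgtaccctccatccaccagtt
Hp: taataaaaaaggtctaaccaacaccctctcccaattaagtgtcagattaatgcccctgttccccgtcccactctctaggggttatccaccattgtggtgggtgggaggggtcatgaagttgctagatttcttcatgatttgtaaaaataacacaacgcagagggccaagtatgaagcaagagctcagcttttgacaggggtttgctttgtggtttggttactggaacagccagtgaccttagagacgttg
Apoa1: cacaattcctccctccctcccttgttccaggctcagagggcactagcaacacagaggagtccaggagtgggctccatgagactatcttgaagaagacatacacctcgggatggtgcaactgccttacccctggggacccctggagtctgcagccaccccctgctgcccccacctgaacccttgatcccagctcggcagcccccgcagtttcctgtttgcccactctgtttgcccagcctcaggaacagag
Hsd3b5: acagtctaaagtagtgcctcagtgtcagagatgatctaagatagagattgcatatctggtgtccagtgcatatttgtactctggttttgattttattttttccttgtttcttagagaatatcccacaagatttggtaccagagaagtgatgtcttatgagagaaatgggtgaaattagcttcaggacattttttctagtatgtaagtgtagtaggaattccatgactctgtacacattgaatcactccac
Mup20: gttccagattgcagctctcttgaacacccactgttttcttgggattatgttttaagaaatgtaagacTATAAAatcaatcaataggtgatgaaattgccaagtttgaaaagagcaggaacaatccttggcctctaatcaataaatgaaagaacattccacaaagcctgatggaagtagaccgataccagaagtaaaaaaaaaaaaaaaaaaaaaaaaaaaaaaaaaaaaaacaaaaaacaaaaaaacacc

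Saa2 and Saa1 carry the same 8 letters, TTGCACAA, from 140 to 133 and from 39 to 32 bases before the annotated start, respectively. The start used for Saa1 lies 143 bases upstream of the gene as deposited, while the starts of the other genes shown are those of the deposited table, so the distances of Saa1 and Saa2 are not to be compared. Orm2 carries TTGCGCAA from 120 to 113 bases and TATAAA from 33 to 28 bases before the start. Mup20 carries TATAAA from 183 to 178 bases before its start. The windows of Hp, Apoa1, Hsd3b5 and Car3 held neither of these letters, and the window of Alb held TTGCNNAA from 114 to 107 bases before the start. Among the 19 genes set apart high in replicate 3 on the mRNA TPM scale, 8 windows (42.1%) held TTGCNNAA, namely those of Hpx, Lcn2, Orm1, Orm2, S100a9, Saa1, Saa2 and Slpi. Saa1 and Saa2, and Orm1 and Orm2, are pairs of related genes whose windows were each counted, so these windows are not independent. The share was 9.38% of 21608 nuclear protein-coding genes, 18% of the 100 leading genes and 15.1% of 73 genes set apart low in replicate 3. The letters TTCNNNGAA of STAT factors, on either strand, were in 3 of the 19 windows (15.8%), against 7.70% of all. TATAAA was in 5.26% of the 19 against 8.06% of all. One spelling each of NF-kB and HNF1 sites, searched on both strands, was in 0 of the 19 windows, against 0.426% and 0.370% of all. A match of letters is a description of the window and not a bound site.

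Some neutrophil markers and further genes were high in replicate 3 beside the acute-phase genes. The 9 neutrophil markers summed to 4.16, 2.28 and 179.0 TPM. S100a8 and S100a9 held most of the sum in replicate 3, at 59.5 and 109.8 TPM. The median of the mean TPM of the 9 markers was 0.288, and 1 of them reached a TPM of at least 1 in all 3 libraries. S100a8 and S100a9, the subunits of calprotectin, an abundant protein of neutrophils, had 14, 0 and 688 counts and 42, 9 and 1364 counts. Cxcr2, the receptor through which neutrophils follow chemokines, had 6, 0 and 159 counts, and Ly6g had 0, 0 and 4. Cd14, a receptor part for bacterial lipopolysaccharide, had 71, 8 and 1938 counts, and was set apart high in replicate 3 on both scales. Ly6d, a surface protein placed on the fetal liver list, had 16, 17 and 4273 counts (0.787, 2.80 and 241.4 TPM), the largest fold against the nearer library of the genes set apart high in replicate 3. Isg15, an interferon-stimulated gene, had 12.5, 8.89 and 72.4 TPM and was the only member of its list set apart on the TPM scale. That list summed to 941.8, 679.5 and 660.6 mRNA TPM, the lowest in replicate 3. Of 22 members with a mean mRNA TPM of at least 1, 14 were the highest in replicate 2, beside 57.5% of all genes. Replicate 3 was the highest for 5, beside 5.92%. In bulk RNA, more cells of a type and more RNA per cell cannot be told apart.

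On the mRNA TPM scale, replicate 3 was at the same time low in genes of the male liver. The 18 male-biased genes summed to 23383, 11705 and 5331 mRNA TPM, a ratio of 4.39 between replicates 1 and 3. In TPM the sums were 14475, 2917 and 3889, with replicate 2 the lowest. Of 17 members with a mean mRNA TPM of at least 10, 7 were set apart low in replicate 3 against 1.39% of 5330 genes. On the TPM scale it was 2 of 16 against 1.03%, and 5 of 16 were set apart high in replicate 1 against 1.79%. In TPM, 2 of 16 were also set apart low in replicate 2, against 4.24%. The median member had a log2 ratio of replicate 3 to 1 of -2.49, beside -0.56 for all genes. Mup7, Mup20 and Mup21 are on both this list and that of the MUP genes, so the 2 lists are not separate. Mup7 and Mup21 were among the 7 set apart low, and the uncertainty of MUP counts given below holds for them.

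Hsd3b5, a steroid dehydrogenase of the male mouse liver, had 12075, 769 and 131 counts, or 285.3, 60.9 and 3.55 TPM. Its 3 levels were far apart, and replicate 3 was below the others on both scales. Elovl3, which lengthens fatty acids, stood at 904, 169 and 59.0 TPM. Cyp4a12b and Susd4 were low in replicate 3 as well, with 25.1, 25.1 and 0.698 mRNA TPM and 39.8, 66.5 and 4.26 mRNA TPM. Car3, a carbonic anhydrase abundant in male liver that is not on the list, had 5790, 1893 and 261.4 TPM. Cyp2d9, a testosterone hydroxylase, differed less than these genes, with 1809, 1142 and 891 mRNA TPM, and replicate 3 was the lowest here too. The 17 female-biased genes stayed low, with sums of 34.9, 89.0 and 62.9 mRNA TPM, of which Prlr, the prolactin receptor, held 25.5, 82.8 and 27.7. Of 5 members with a mean mRNA TPM of at least 1, 3 were the highest in replicate 3, beside 5.92% of all genes. Replicates 1 and 2 were the highest for 1 member each. The median log2 ratio of replicate 3 to 1 over the 5 was 2.20.

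The 22 MUP genes summed to 37378, 21005 and 9803 mRNA TPM. Mup3 led them with 20393, 13227 and 7082 mRNA TPM, and Mup20, the darcin pheromone, had 4794, 549 and 1876. Of 16 members with a mean mRNA TPM of at least 10, 8 were set apart low in replicate 3 against the 1.39% of all genes, and 4 were set apart high in replicate 1 against 0.45%. On the TPM scale the sums were 23138, 5235 and 7152, with replicate 2 the lowest, and of 14 members 2 were set apart low in replicate 3 against 1.03% and 8 high in replicate 1 against 1.79%. With TMM or DESeq2 scaling, 3 and 4 members were set apart low in replicate 3. Mup9 had 12109, 3997 and 119 counts and Mup1 had 911, 193 and 24, so replicate 3 was the lowest for both. Mup11 had 34396, 187 and 1729 counts, and Mup14 had 7905, 27 and 1434, with replicate 2 the lowest for both. MUP genes are nearly identical copies in 1 cluster on chromosome 4, so reads shared between copies were dropped, and both the split of their counts and the family sum are uncertain.

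**Figure D3:**
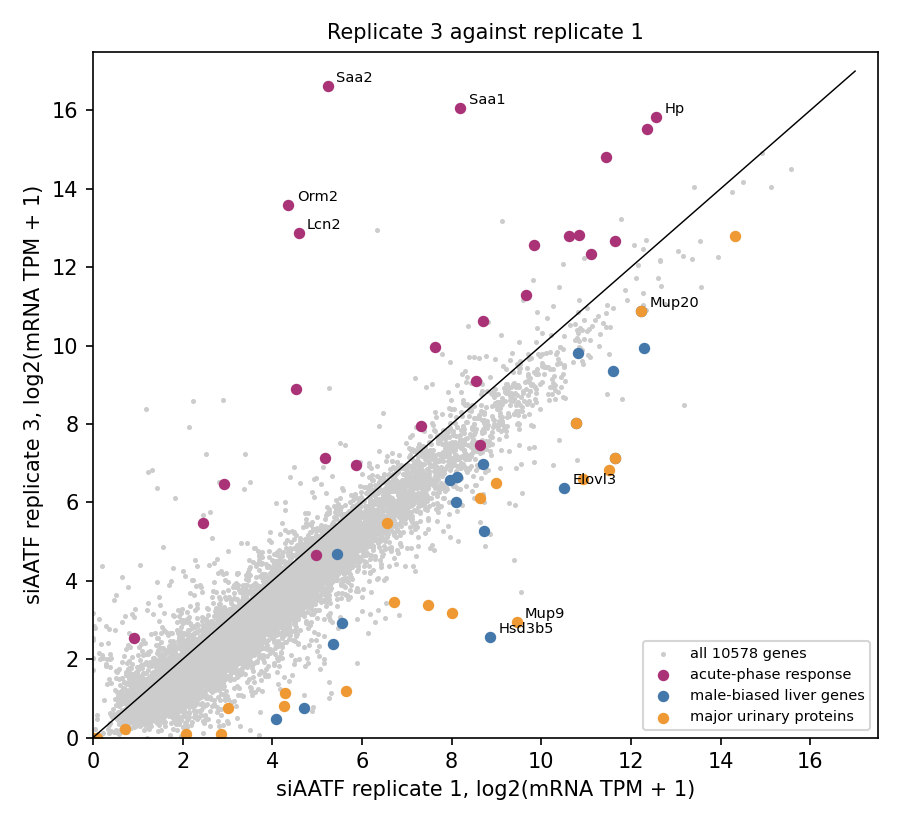
log2(mRNA TPM + 1) of replicate 3 (vertical) against replicate 1 (horizontal) for 10578 nuclear protein-coding genes in gray, with acute-phase, male-biased and MUP genes in color and the line of equal levels in black. Most gray points lie below the line (median log2 ratio -0.56), Saa2 and Saa1 lie far above it, and Hsd3b5 and Mup9 lie far below.

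P450, conjugation and fatty acid oxidation genes also had their lowest sums in replicate 3 and their highest in replicate 1 on the mRNA TPM scale. On that scale, 77.3% of all 10578 genes were the lowest in replicate 3 and 36.6% the highest in replicate 1. In TPM the lowest sums of these lists were in replicate 2. They were 12433, 2538 and 5680 for P450, 16425, 4342 and 8227 for conjugation, and 13036, 3424 and 5113 for fatty acid oxidation. Bile acid genes (3691, 4060 and 1766 mRNA TPM) and gluconeogenesis and glycogen genes (4358, 5328 and 3979 mRNA TPM) had their highest sums in replicate 2. In TPM replicate 2 was the lowest for both lists, with 2285, 1012 and 1288 and with 2698, 1328 and 2902. The 35 cytochrome P450 genes measured, which oxidise drugs and steroids, summed to 20084, 10182 and 7786 mRNA TPM, with a median log2 ratio of replicate 3 to 1 of -1.63. Cyp2e1, the leading member, stood at 4015, 469 and 2128 TPM. Cyp3a11, which oxidises many drugs, stood at 1064, 142 and 184 TPM, and Cyp2c29 at 469, 69.0 and 54.5 TPM. On the TPM scale, 7 of 26 P450 genes were set apart high in replicate 1 against the 1.79% of all genes. In mRNA TPM none of 30 was, and 2, one of them Cyp2a5, were set apart low in replicate 3, against 1.39% of all genes. The 37 genes of conjugation and detoxification had a median log2 ratio of -1.52. Among them Ces1d, a carboxylesterase, had 22723, 408 and 770 counts, and Gstp1, a glutathione transferase, had 69424, 2909 and 13868. Fatty acid oxidation and ketogenesis had 21058, 13739 and 7009 mRNA TPM, of which Fabp1 was the larger part.

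On the mRNA TPM scale, groups with closer levels included apolipoproteins, urea cycle genes and complement. In TPM replicate 2 had the lowest sum of each, with 91494, 39884 and 76469 for apolipoproteins and 11025, 4366 and 9685 for the urea cycle list. The 14 apolipoprotein genes summed to 147801, 160024 and 104821 mRNA TPM, and none of the 13 at a mean of at least 10 was set apart. The 25 genes of the urea cycle and amino acid breakdown summed to 17810, 17517 and 13275 mRNA TPM, and none was set apart. The 30 complement and coagulation genes measured summed to 14683, 17977 and 16709 mRNA TPM, and to 9089, 4481 and 12189 TPM. In TPM, 3 of 29 were set apart low in replicate 2 against 4.24%, and 1 was set apart high in replicate 3 against 1.2%. C3, the central complement protein, had 1975, 3328 and 4826 mRNA TPM and was the highest in replicate 3, as were 8 of 29 members of its list beside 5.92% of all genes. Cholesterol synthesis genes summed to 2095, 1969 and 1915 mRNA TPM, the narrowest relative range of the metabolic lists on that scale. In TPM their sums were 1297, 491 and 1397, and 4 of 15 members were set apart low in replicate 2 against 4.24%.

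**Figure D4:**
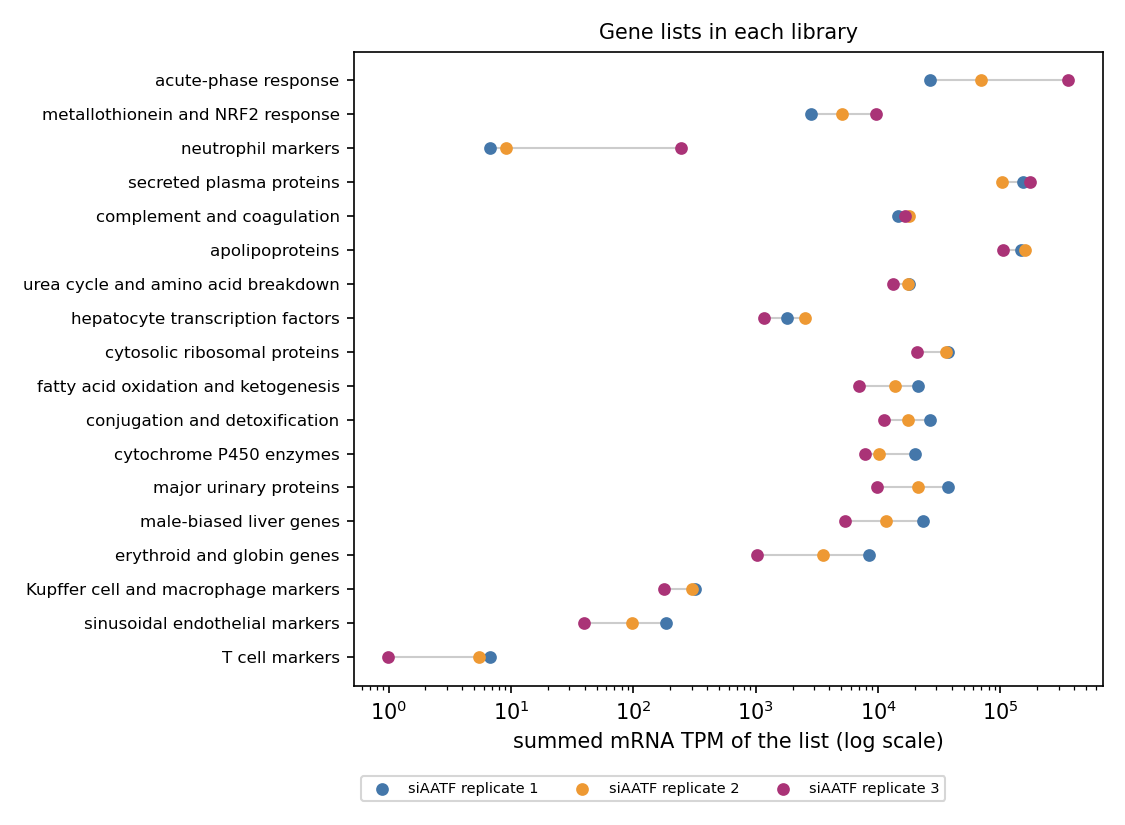
Summed mRNA TPM (horizontal log axis) of 18 gene lists, 1 point per library. Acute-phase genes and neutrophil markers are the highest in replicate 3, whereas male-biased, globin and sinusoidal endothelial genes are the lowest there.

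Further genes set apart in 1 library are given by the size of their fold. Low in replicate 1 on both scales, beside Saa2, Lcn2 and Orm2, were Cfhr4, a relative of complement factor H (0.919, 16.2 and 81.6 TPM), and Prtn3, a serine protease of neutrophil granules (3.999, 68.9 and 284.8 TPM). Replicate 3 was the highest for both. High in replicate 1 on both scales were Inmt, a methyltransferase (13564, 402 and 225 counts), Gsta2, a glutathione transferase (855, 25 and 41), Mup15 (2763, 24 and 152) and Aqp1, a water channel (3174, 54 and 362). Acot1, a thioesterase of fatty acyl-CoA, was high there in mRNA TPM, with 28.96, 3.46 and 0.710.

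Igfbp1, which binds insulin-like growth factors, was low in replicate 2 on both scales, with 13.6, 0.884 and 20.5 TPM. Selenop, the selenium carrier of plasma (651.9, 49.2 and 531.3 TPM), and Serpina1e (26.3, 1.67 and 17.96 TPM) were low there on the TPM scale and not set apart on the other. H2-T15 was low there in mRNA TPM, with 338, 7 and 424 counts. For these 4 genes replicates 1 and 3 were nearer to each other than to replicate 2. Serpina12, a serpin also called vaspin, was low in replicate 3 on both scales (21.4, 13.9 and 1.98 TPM), and Mup19 was low there in mRNA TPM, with 328, 61 and 14 counts.

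The position of replicate 2 depended on the scale. On the TPM scale it had 10 genes of any type set apart high (0.272%) and 156 set apart low (4.24%), of which 0 and 142 were nuclear protein-coding. In mRNA TPM it had 227 set apart high (4.26%) and 4 set apart low (0.075%), so the direction turned over with the scaling. The median log2 ratio of replicate 2 to replicate 1 over 10578 genes was 0.20 on the mRNA TPM scale, -0.76 on the TPM scale, -0.29 after TMM scaling and -0.21 after DESeq2 scaling. For replicate 3 to 1 the same medians were -0.56, -0.34, -0.02 and 0.01. Levels in replicates 2 and 3 are to be read against these shifts.

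The leading genes by fold among those high in replicate 2 on the mRNA TPM scale were C1ql3, Nktr (which has a cyclophilin domain), Akap17b, Taf1d (a part of the RNA polymerase I factor SL1) and Tspyl2. Nktr had 7.63, 82.4 and 5.02 mRNA TPM and Taf1d had 22.6, 219.8 and 20.5, with replicates 1 and 3 close to each other for both genes. Of the list of Aatf and its nucleolar partners, 3 of the 9 members with a mean mRNA TPM of at least 10 were set apart high in the same library, against 4.26% of all genes: Nop56 with 38.2, 244 and 29.7 mRNA TPM, Nop58 with 6.75, 42.4 and 5.77, and Nolc1 with 22.8, 112 and 11.8. Nop56 and Nop58 are core proteins of the box C/D snoRNPs that guide methylation of rRNA. In all, 12 of the 14 members were the highest in replicate 2, beside 57.5% of all genes, and Fbl, the methyltransferase of the same particle, was one of 2 that were not (67.0, 36.6 and 32.0 mRNA TPM). On the TPM scale the list was level, with sums of 223.6, 201.8 and 208.2 and no member set apart. Hepatocyte transcription factors were the highest in replicate 2 for 17 of 20 genes, beside the same 57.5%. Of 17 with a mean mRNA TPM of at least 10, Ppara and Prox1 were set apart high there, with 31.1, 142 and 20.7 mRNA TPM and 12.9, 76.7 and 16.3 mRNA TPM. In TPM the same list summed to 1109, 631.5 and 846.2, so replicate 2 was the lowest, and no member was set apart high there.

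Gene length moved with the levels of replicate 2. The 227 genes high there had a median length of 4637 bases, beside 2543 bases for the 5330 genes tested. Across 10578 genes, the log2 ratio of replicate 2 to 1 had a Spearman's rho of 0.35 with gene length, given as a description over genes that share both libraries. The median log2 ratio was -0.19 in the group of shortest genes and 0.67 in the group of longest genes. For replicate 3 to 1 the medians lay between -0.58 and -0.54 in the 5 groups. The part of length in the levels of replicate 2 was not tested.

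**Figure D5:**
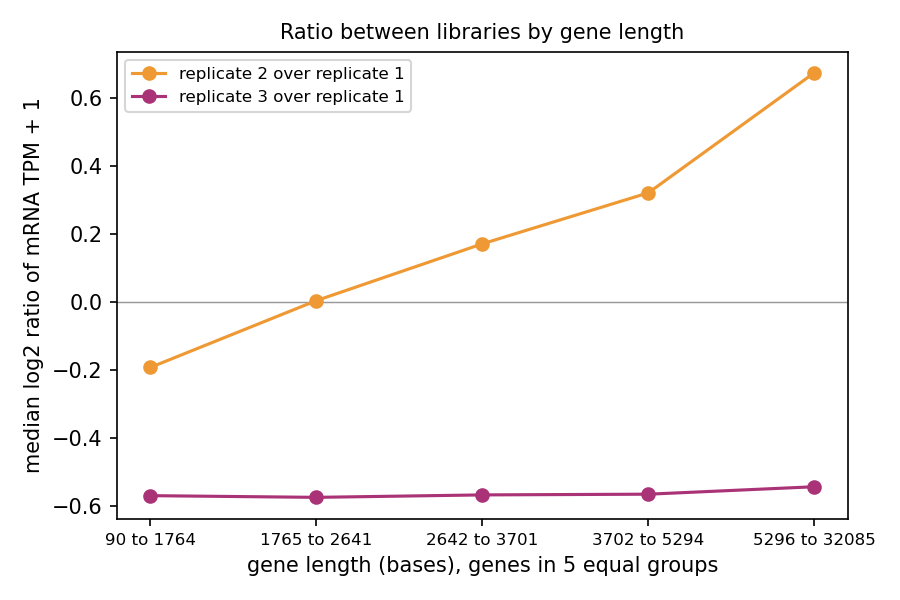
Median log2 ratio of mRNA TPM + 1 (vertical) for nuclear protein-coding genes in 5 equal groups by length in bases (horizontal). The line for replicate 2 over 1 climbs from -0.19 to 0.67, and the line for replicate 3 over 1 stays near -0.57.

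lncRNA genes held 0.487%, 0.619% and 0.324% of TPM, and without Malat1, a split made after its values were seen, 0.451%, 0.449% and 0.301%. Replicate 2 was thus above replicate 1 only with Malat1 included. Malat1, a lncRNA kept in the nucleus, led them with 357.9, 1702 and 236.0 TPM and was the only member of the lncRNA list that was set apart. Neat1, the scaffold of paraspeckles, had 13.7, 20.2 and 4.15 TPM. The next lncRNA genes by mean TPM were Gm50383 (112.3, 215.0 and 10.6), BC024386 (105.7, 61.5 and 118.5), 1810008I18Rik (119.1, 82.2 and 71.8) and Gm43500 (62.6, 153.6 and 11.2).

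Markers of the other liver cells were present at far lower levels than hepatocyte genes. Sinusoidal endothelial markers summed to 184.7, 98.0 and 39.4 mRNA TPM, and 11 of 12 were the lowest in replicate 3, beside 77.3% of all genes. Clec4g, a lectin of these cells, had 1523, 45 and 324 counts and was set apart high in replicate 1, whereas Lyve1 was nearly level at 4.97, 5.10 and 5.95 mRNA TPM. Macrophage and Kupffer cell markers summed to 319.4, 298.9 and 178.4 mRNA TPM, led by the complement genes C1qa, C1qb and C1qc and by Clec4f, which Kupffer cells make in mouse liver. Cd68 went against the sum, with 5.36, 6.65 and 9.72 mRNA TPM. Acta2, the smooth muscle actin of vessel walls and activated fibroblasts, had 1335, 16 and 42 counts and was set apart high in replicate 1.

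Blood cells differed in kind. The globin and erythroid genes summed to 8469, 3562 and 1022 mRNA TPM, so replicate 1 held the most RNA of red cells. Hba-a1 had 42402, 2785 and 4848 counts, and Hbb-bs had 30055, 706 and 4692. None of the 9 T cell markers and none of the 8 NK cell markers reached a TPM of 1 in all 3 libraries. Cd3e had 0 counts in each library, which allows up to 3 counts, or 0.0705, 0.253 and 0.0858 CPM (counts per 1000000). Cd8a had 0, 0 and 3 counts. Cd4, which some macrophages carry too, had 317, 27 and 12 counts. Transcripts of B and plasma cells were found, with 1100, 164 and 592 counts for Ighm and 129, 17 and 529 for Igkc. The pancreas, adipocyte and mesothelial lists had no gene at a TPM of at least 1 in all 3 libraries. The gut epithelium list had 1, Fabp2, a carrier of fatty acids, with 98.7, 15.6 and 43.5 TPM, and the skeletal muscle list had 1, Mylpf, a myosin light chain, with 34, 10 and 31 counts. The muscle list summed to 2.60, 25.7 and 2.18 mRNA TPM, the highest in replicate 2.

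Genes of cell division were low. The 20 proliferation genes summed to 11.03, 4.89 and 22.2 TPM, with 1 of them at a TPM of at least 1 in all 3 libraries. Top2a had 43, 15 and 165 counts, and Mki67 had 38, 9 and 162. Afp, the fetal albumin relative that many liver tumors secrete, had 1.42, 1.43 and 1.04 TPM on mouse genes, or 2.29, 5.72 and 1.42 mRNA TPM. Replicate 3 was the highest for Top2a and Mki67 counts, and replicate 3 was the lowest for Afp on both scales.

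Likeness between whole libraries was high in rank and uneven in level. Across 10578 genes, Spearman's rho of mRNA TPM was 0.93 between replicates 1 and 3, 0.90 between 1 and 2, and 0.90 between 2 and 3. Pearson's r of log2(mRNA TPM + 1) was 0.94, 0.92 and 0.92. These are descriptions across genes, which are not replicates.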

How the data were processed

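Bulk RNA from 3 livers labelled siAATF was sequenced after SMART-Seq amplification, which copies cDNA by PCR. After trimming with Cutadapt, the authors used STAR 2.7.11 to align the reads to a merged human and mouse genome. Reads with more than one position, or found in both species, were removed by the authors, and the rest were counted per gene with featureCounts 2.0.1 (versions per the submitters' processing notes). The deposited values are raw counts, with neither normalization nor filtering. Whether strand was used is not given in the sources used here. Of the human table only library totals were used, and 1 human gene broken over lines was left out.

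TPM was the count over the deposited gene length, scaled to 1000000 per library, in Python 3.11.15 (numpy 2.4.6, pandas 2.3.3). Names of 56323 of 56884 mouse genes were found in GENCODE release 39. Coordinates are those of the deposited table, in which 32780 genes had the same span. TMM factors came from edgeR 4.0.16 and size factors from DESeq2 1.42.0 (R 4.3.3). There is 1 group, so no test between samples was run. The rule for genes set apart was run on simulated counts with known folds, drawn from a single profile with counting error alone. The simulation held none of the shifts in class shares between these libraries, so it cannot show how the rule acts under them. A total of 3 counts was taken as the floor.

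The genes, lists and rules were chosen with earlier results of these data known. Names were drawn by rule from Aatf and 3 hepatocyte markers, the 30 genes of largest mean TPM, up to 4 leading members and the members set apart of each of 50 lists, the 5 protein-coding genes set apart by the largest fold per library and direction, and 5 lncRNA genes. Of the list members allowed by this rule, not each is printed. Asgr1, Fga, Fgg, Crp, Ly6g, Cd68, Lyve1, Cd3e, Cd8a, Mki67, Top2a, Slpi, the 6 mitochondrial mRNAs with a nuclear copy and those copies, and the clock genes were named after their values were seen. The lists held 4 symbols that were not found in the table. Promoter windows were read from the GRCm39 genome. Replicates are separate samples by their labels, and nothing else was known of pairing between them. Alternatives were other scalings, thinning, thresholds and leaving out each library.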

Additional observations from a re-analysis of the deposited data

How the results depend on the processing

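No paired analysis was possible because the 3 libraries form 1 group and no result comes from a test. Depth limits low genes in replicate 2 the most, where 3 counts are 0.253 CPM, and leaving out a library was not run for genes set apart, which need all 3. The count of expressed genes, 8689, was 8493 to 10603 under the alternatives tried (8782 to 9711 without 1 library each).

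The 100 leading genes held 74.6% of TPM on average (69.8 to 79.5% without 1 library), 57.7% over nuclear genes and 54.95% in mRNA TPM. The mitochondrial share, 41.5%, was 29.2 to 49.8% without 1 library, and it was 29.2% without replicate 2. Secreted plasma proteins held 8.31% (6.05 to 11.2%), and 14.4% in mRNA TPM. P450 genes held 0.688% (0.411 to 0.906%, the lowest without replicate 1), and 1.27% in mRNA TPM.

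High in replicate 1 were 66 genes in TPM, 42 over nuclear genes, 24 in mRNA TPM, 21 with TMM and 19 with DESeq2 factors, 514 at 2-fold and 193 at a mean TPM of at least 1. Low in replicate 1 were 16, against 26 at 2-fold and 48 at the lower mean. High in replicate 2 were 10, against 178 over nuclear genes, 5 in CPM, 227 in mRNA TPM, 35 with TMM, 46 with DESeq2 factors, 77 at 2-fold and 131 at the lower mean. Low in replicate 2 were 156, against 16 over nuclear genes, 4 in mRNA TPM, 51 with TMM, 40 with DESeq2 factors, 1397 at 2-fold and 407 at the lower mean. High in replicate 3 were 44, against 19 in mRNA TPM, 105 at 2-fold and 105 at the lower mean. Low in replicate 3 were 38, against 130 over nuclear genes, 74 in mRNA TPM, 99 at 2-fold and 250 at the lower mean. Thresholds change what is counted by construction, and for the scalings the cause was not tested beyond the class shares in the text.

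The acute-phase ratio of replicate 3 to 1, 13.5, was 15.96 in TPM, 14.2 over nuclear genes, 9.99 in CPM, 13.5 (13.52) after thinning, 21.5 with TMM and 22.1 with DESeq2 factors. The male-biased ratio of replicate 1 to 3, 4.39, was 3.72, 4.20, 3.36, 4.36, 2.76 and 2.68 in the same order. Acute-phase members set apart high in replicate 3 numbered 8 to 15 of 24 over the 7 scalings, and male-biased members set apart low there numbered 2 to 7. MUP members set apart low in replicate 3 numbered 2 to 8.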

Other observations

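Of the 16 circadian clock genes with a mean mRNA TPM of at least 1, 10 were the lowest in replicate 3 and 4 the highest there, beside 77.3% and 5.92% of all genes, and none of the 5 with a mean of at least 10 was set apart. The values of 3 of them, chosen after their values were seen, follow. Bmal1, an activator of the circadian clock, had 569, 51 and 120 counts in replicates 1, 2 and 3, or 10.9, 8.12 and 2.24 mRNA TPM. Dbp, a clock output gene whose peak lies opposite to that of Bmal1 in mouse liver, had 20, 2 and 241 counts, or 0.644, 0.536 and 7.56 mRNA TPM. Per1, a repressor of the clock, had 117, 33 and 419 counts. In mRNA TPM, replicate 3 was the lowest for Bmal1 and the highest for Dbp and Per1.

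Pck1, the enzyme that commits carbon to new glucose, had 249.3, 896.1 and 769.2 mRNA TPM, and Mat1a, which makes S-adenosylmethionine, had 770.5, 2743 and 2280, so replicate 1 was the lowest for both. Most members of their lists went otherwise. Of 14 gluconeogenesis and glycogen genes, 2 were the lowest in replicate 1 and 10 in replicate 3. Of 25 urea cycle and amino acid breakdown genes it was 4 and 20. The shares of all genes were 11.2% and 77.3%. Thrsp, a lipogenic gene that follows feeding, had 747.5, 240.7 and 125.9 mRNA TPM, with replicate 1 the highest. Onecut1, a hepatocyte transcription factor, had 2127, 382 and 223 counts and was set apart low in replicate 3 on both scales.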
